A study of Mus musculus with 6 samples.

Results

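Oncofetal genes are expressed in the fetal liver, are shut down in the adult organ and often return in liver cancer. The 9 genes described here were taken by name as fetal liver and liver cancer markers that are not imprinted, which are Afp, Gpc3, Golm1, Lin28b, Igf2bp1, Igf2bp2, Igf2bp3, Hmga1 and Hmga2. They were read by 15 of the 55681 probes on the array, which name 34741 genes or transcripts in all. Gene expression was measured in total RNA of 3 normal livers and 3 liver tumors carrying a Ha-ras mutation, on 6 SurePrint G3 Mouse GE arrays with 1 dye (Cy3). All samples came from male C3H/HeN mice of 74 to 75 weeks, an inbred strain whose males develop liver tumors spontaneously. The animals were F2 offspring of the untreated control arm of an arsenic project, kept on standard diet and tap water. The tumors were macroscopic pieces that hold stromal and blood cells beside tumor cells. The labels do not say whether the samples of a group came from separate animals, so p-values measure only the spread between these samples, which may be technical.

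The members fall into 3 roles. Afp encodes alpha-fetoprotein, the albumin-like carrier protein of fetal plasma, Gpc3 encodes glypican 3, a heparan sulfate proteoglycan anchored to the cell surface, and Golm1 encodes the Golgi membrane protein GP73, part of which is cut and secreted. Lin28b blocks the maturation of let-7 microRNAs, and Igf2bp1, Igf2bp2 and Igf2bp3 bind target mRNAs and affect their stability, transport and translation. Several of these RNA-binding proteins are themselves known let-7 targets. Hmga1 and Hmga2 encode small chromatin proteins that bind AT-rich DNA and bend it, and both are known from embryonic tissue and many tumors.

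The readings differed between these roles and, for the chromatin proteins, between the genes of a role. Afp, Gpc3 and Golm1 were high in all 3 tumors and low or near background in all 3 normal livers. Hmga1 was well measured and did not pass the test, and the RNA-binding members and Hmga2 gave almost no signal in either tissue. An expression value below is the processed signal of a probe divided by the 75th percentile of its array, on a linear scale. A reading counts as well above background where Feature Extraction, the scanner software, marked it so, and the lowest such value on an array lay between 0.0905 and 0.125. Probes were tested where all 3 arrays of at least 1 group were well above background, and a gene was called at a limma adjusted p under 0.05. Because a gene absent from normal liver enters only through the tumors, Gpc3 and Afp had to be high there to be tested at all.

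**Figure D1:**
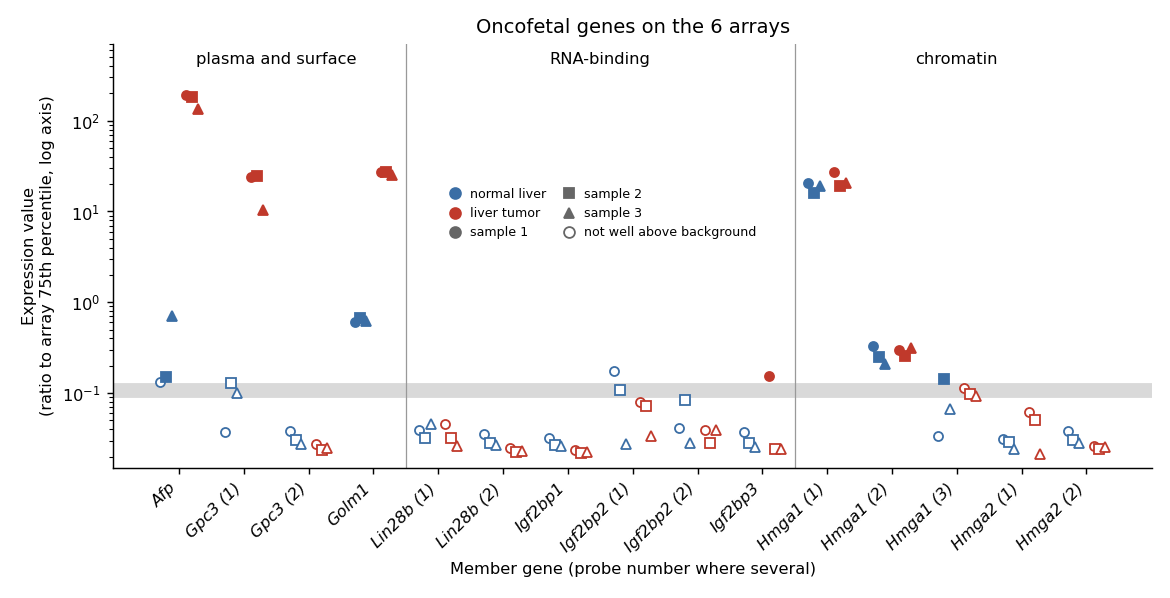
Expression values (ratio to the array's 75th percentile, log axis) of the 15 probes of the 9 members on each of the 6 arrays, blue for normal liver and red for liver tumor, with open symbols for readings not well above background and a grey band for the lowest values well above background on the arrays (0.0905 to 0.125). Afp, 1 probe of Gpc3 and Golm1 are separated by tissue, Hmga1 overlaps, and the RNA-binding members and Hmga2 lie in or near background.

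The regions just upstream of the 3 genes that rose are shown because these genes moved together. Each is the run of 250 bases before the gene start annotated by RefSeq on GRCm38.p6, 5′ to 3′ on the strand of the gene, at chr5:90490464-90490713 on the plus strand for Afp, chrX:52613975-52614224 on the minus strand for Gpc3 and chr13:59675785-59676034 on the minus strand for Golm1. Capitals mark every match, on either strand, to the TATA box (the letters TATAAA), the box named after its letters CCAAT, and the GC box (the letters GGGCGG).
Afp: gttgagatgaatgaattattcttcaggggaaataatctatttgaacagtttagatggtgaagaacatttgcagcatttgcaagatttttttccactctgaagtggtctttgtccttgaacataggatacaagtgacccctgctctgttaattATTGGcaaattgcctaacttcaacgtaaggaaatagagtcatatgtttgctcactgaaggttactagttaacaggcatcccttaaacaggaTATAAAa
Gpc3: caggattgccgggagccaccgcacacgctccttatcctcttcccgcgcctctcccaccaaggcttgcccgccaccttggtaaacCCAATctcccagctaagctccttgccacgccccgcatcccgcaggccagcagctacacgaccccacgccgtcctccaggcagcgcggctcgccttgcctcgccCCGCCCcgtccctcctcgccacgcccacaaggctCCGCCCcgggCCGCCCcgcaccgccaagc
Golm1: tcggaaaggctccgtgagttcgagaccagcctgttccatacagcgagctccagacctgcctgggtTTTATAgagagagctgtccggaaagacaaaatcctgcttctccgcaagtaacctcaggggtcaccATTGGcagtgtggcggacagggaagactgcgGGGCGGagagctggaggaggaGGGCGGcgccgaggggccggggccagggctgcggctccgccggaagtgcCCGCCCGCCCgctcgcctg
The Afp stretch is AT-rich, with 36.0% G and C and 1 CpG, and fewer CpGs were present in 7.87% of the 32851 upstream windows of the same length in the RefSeq table. It holds a TATA box starting 7 bases before the annotated start and a CCAAT box starting 98 bases before it, while no GC box was found. The Gpc3 stretch differs, with 71.6% G and C, 25 CpGs, 3 GC boxes and 1 CCAAT box 166 bases before the start. Golm1 has 65.6% G and C, 20 CpGs, 4 GC boxes of which 2 overlap, 1 CCAAT box, and a TATAAA match on the opposite strand 185 bases before the start. Among all windows, 12.4% held the TATA box, 33.8% the CCAAT box and 32.7% the GC box. The AP-1 motif TGANTCA, the FOXA motif TGTTTAC and the TCF motif CTTTGAT were also searched and had no match in these 3 windows. Of all windows, 6.75%, 3.17% and 3.21% held them. Only these letters were searched, so the absence says nothing about variant forms of these motifs. A strict HNF1 consensus had no match either, but only 3 of all windows (0.00913%) matched it. Its absence therefore says nothing about looser HNF1 sites, which were not searched. The CCAAT box is the single motif of those searched that all 3 windows share. It is not particular to the genes that rose. The windows of Lin28b and Igf2bp3, which gave almost no signal, also hold it, 128 and 118 bases before the start. The matches are letters in a window and were not tested for function. Upstream sequences were matched for 8 of the 9 members, all but Igf2bp1.

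Afp (chromosome 5, 90490714 to 90508907, GRCm38.p6) lies beside the albumin gene and is normally silenced soon after birth. Its expression values in the normal livers were 0.132, 0.149 and 0.706, of which the second and the third were well above background. In the tumors they were 190.3, 181 and 134. The groups did not overlap, and the lowest tumor stood far above the highest normal liver. The log2 difference was 9.44 ± 0.63 (SE, n = 3 per group), or 693-fold with a 95% interval of 244 to 1972, at a limma adjusted p of 3.06e-04. Normexp background correction gave 7.87, under the lower end of this interval (7.93 on the log2 scale). The spread lay in the normal livers, where the highest value was 5.35 times the lowest, against 1.42 times in the tumors. Leaving out the third normal liver moved the log2 difference to 10.21, with the gene still called.

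The array carries the Afp probe at 10 spots, which gives the spread between spots of the same RNA. In the third normal liver all 10 spots were well above background, with values from 0.618 to 0.818. The first normal liver had 1 of 10 such spots and a range of 0.105 to 0.179, and the second had 7 of 9 after 1 outlier spot was left out, with a range of 0.101 to 0.20. The spots of the third normal liver thus did not overlap those of the other two. In the tumors the spots ran from 183 to 198, from 171 to 189 and from 126 to 139. The third tumor lay below the other two at every spot, and the SD between spots of 1 tumor array was at most 0.0546 on the log2 scale.

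**Figure D2:**
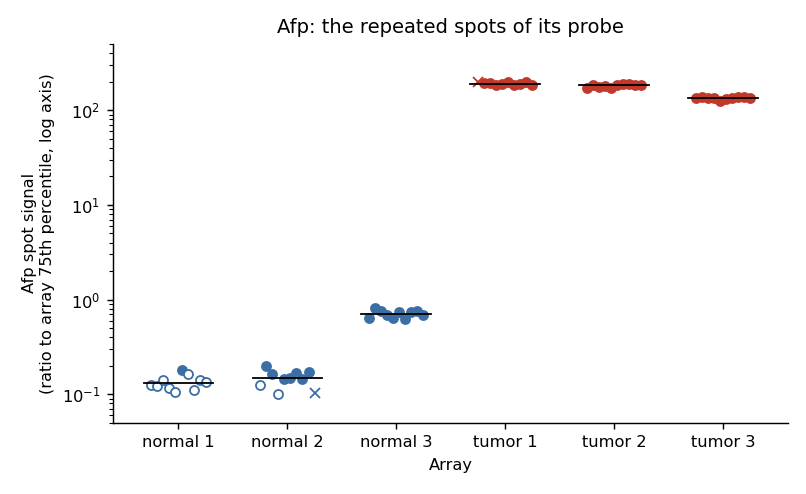
Signal of each of the 10 Afp spots (ratio to the array's 75th percentile, log axis) on the 3 normal liver arrays (blue) and the 3 tumor arrays (red), with open symbols for spots not well above background, crosses for outlier spots and a line at the median of the spots used. The third normal liver sits at a median of 0.708, above the medians of 0.131 and 0.148 of the other two, and the tumors sit between 135 and 191.

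Gpc3 (chromosome X, 52272426 to 52613974) encodes a surface protein that is used in pathology to tell liver cancer from benign liver tissue. With the probe on its RefSeq transcript, the normal livers gave 0.0371, 0.128 and 0.101, none of them well above background. The tumors gave 24.2, 24.4 and 10.3. Every tumor stood far above every normal liver, and the third tumor was below the other two, with 2.38 times between the highest and the lowest tumor. Since normal liver gave only an upper limit, the tumors were at least 159-fold higher, taken against the lowest signal counted as well above background on each normal array or the probe's own where higher. This bound holds for the processed signal. Normexp background correction gave a log2 difference of 5.21, below the bound of 7.32, and the methods' t-test, unpaired, did not call the gene (adjusted p = 0.0581). The limma adjusted p was 3.57e-04, for measured group means of 0.0887 ± 0.0467 and 19.6 ± 8.11 (SD, n = 3 each). A second probe, designed on a separate cDNA placed in the same gene, stayed within background on the 6 arrays, with values from 0.0238 to 0.0377. The rise therefore rests on 1 of the 2 Gpc3 probes, and why the other stayed dark was not tested.

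Golm1 (chromosome 13, 59634996 to 59675784) had the smallest SE among the tested members, and every one of its 6 readings was well above background. Its values were 0.604, 0.667 and 0.629 in the normal livers and 27.3, 27.2 and 25.1 in the tumors. The groups did not overlap and neither group spread by more than 1.10 times. The log2 difference was 5.39 ± 0.10 (SE, n = 3 per group), which is 41.9-fold with a 95% interval of 35.2 to 49.8, at a limma adjusted p of 5.62e-06. Among the 16483 tested genes that were well above background on all arrays, this rise was the 11th largest.

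For these calls the background matters. Of 18560 genes tested, 34.2% were called in either direction, 13.2% were called higher in the tumors and 21.0% lower, and in 51.8% the values of the groups did not overlap. Of the 9 members, 4 were tested (Afp, Gpc3, Golm1 and Hmga1), 3 were called higher and 0 lower. The median log2 difference over all tested genes was -0.13. No single gene can pass by the order of its values alone, since the exact two-sided permutation test of 3 against 3 samples cannot go below p = 0.1, the value that Afp, Gpc3 and Golm1 each reached. All 3 also met the criteria of the study's methods, which ask for a change of at least 2-fold, a mean above 1.0 in either tissue and an unadjusted p under 0.05 by the methods' t-test, and none of the other members did. This count used the unpaired form of that test, and in the paired form, which the statistics section of the study names, Afp and Golm1 met the criteria and Gpc3 did not. Normal livers were hybridised on 1 slide and tumors on another, and the part of the slide cannot be told apart from that of the tissue.

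**Figure D3:**
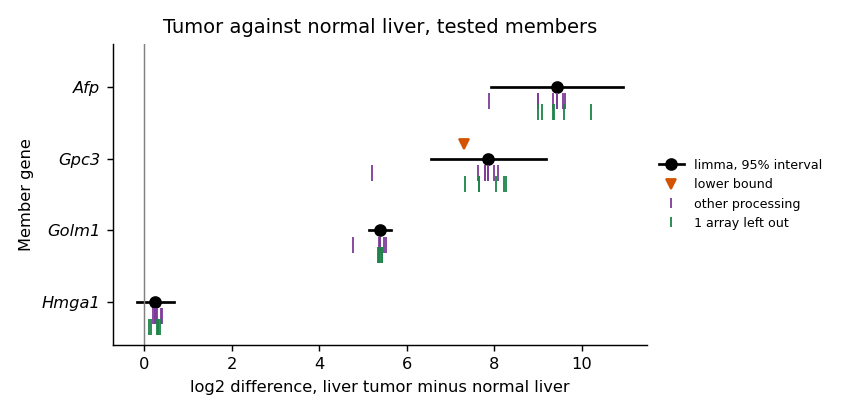
Log2 difference, tumor minus normal liver, of the 4 tested members, as black points with 95% limma intervals. An orange triangle, labelled lower bound, marks the bound for Gpc3 (7.32), which uses the mean of the tumors. Purple ticks are values under other processing and green ticks are values with 1 array left out. Afp, Gpc3 and Golm1 lie well to the right of 0 under every setting, and the Hmga1 interval spans 0.

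The RNA-binding members gave a different picture. Lin28b (chromosome 10, 45376617 to 45486314) had 2 probes, and neither was well above background on any array, with values from 0.0222 to 0.0456. Igf2bp1 (chromosome 11, 95957163 to 96005944) was read at 0.0263 to 0.0319 in normal liver and 0.0217 to 0.0237 in the tumors. These readings carry no order, because every one was below the range that counts as signal. Igf2bp2 (chromosome 16, 22059009 to 22163299), the family member that adult tissues also express, was not well above background with either of its 2 probes, whose highest reading was 0.174 in the first normal liver.

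Igf2bp3 (chromosome 6, 49085218 to 49215469), an oncofetal mRNA-binding protein used as a tumor marker, gave the single exception. Its values were 0.0371, 0.0285 and 0.0255 in the normal livers and 0.156, 0.0241 and 0.0242 in the tumors. Only the first tumor was well above background, and the other 2 tumors were at the level of normal liver. The probe did not enter the test, and the value of the first tumor rests on 1 spot of 1 array. Together with Hmga2, the 5 untested members had 8 probes and 48 readings, of which 1 was well above background. Over the whole array, 45.6% of the probes were well above background on no array. A gene below this limit may still be transcribed at a low level or in few cells.

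Among the chromatin proteins, Hmga1 (chromosome 17, 27556574 to 27563672) was measured with confidence in both tissues. Its brightest probe gave 20.4, 16.2 and 19.2 in the normal livers and 27.3, 19.2 and 20.6 in the tumors. The first tumor was the highest of the 6 samples and the other two lay within or just above the range of normal liver, so the groups overlapped. The log2 difference was 0.26 ± 0.17 (SE, n = 3 per group), with a 95% interval of -0.16 to 0.67 and a limma adjusted p of 0.299. The upper end of this interval is a 1.59-fold rise. Quantile normalization moved the log2 difference to 0.40 and spike-in scaling to 0.39, with the gene not called. Without the first tumor the difference was 0.10. A second Hmga1 probe gave 0.16 ± 0.19 (SE) at an adjusted p of 0.558, and the last was well above background in 1 normal liver and no tumor. The design lists transcripts of the near-identical gene Hmga1b under the first 2 probes, so their signal cannot be assigned to Hmga1 alone. Hmga2 (chromosome 10, 120361268 to 120476469), its embryonic relative, was not well above background with either probe on any array, and its highest reading was 0.0626 in the first tumor.

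Genes around the members were described by lists of their pathways and families, each set beside the median of all tested genes (-0.13). Scaling by spike-in controls moved that median to 0.00, and the medians of the let-7 processing, RNA-binding, albumin and glypican lists, all within 0.08 of 0, then turned positive. Around Lin28b, the list held its paralog Lin28a and the enzymes that make, tail and degrade let-7. Of its 9 tested genes 1 rose and 1 fell, with a median of -0.08. Ago2, the slicer protein that carries mature microRNAs, rose by 0.77 ± 0.18 (adjusted p = 0.0184), with its 3 other tested probes at 0.12 to 0.92, and Dis3l2, the exonuclease that degrades tailed let-7 precursors, fell by 0.65 ± 0.14 on the log2 scale (adjusted p = 0.0148). The fall of Dis3l2 was lost when arrays were scaled by their spike-in controls. Lin28a had values of 0.920, 0.721 and 0.797 in the normal livers and 1.60, 0.970 and 1.26 in the tumors. Each tumor was above each normal liver, but the log2 difference of 0.63 ± 0.20 did not pass the test (adjusted p = 0.0567). With spike-in scaling it did. Tut4, which tails let-7 precursors, was called higher after normexp or quantile normalization and with the deposited ratios.

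Known let-7 targets other than the members did not move as 1 block. Of 15 tested, 2 rose, 1 fell and 12 did not pass, with a median log2 difference of 0.28. Hras was called higher too after normexp or quantile normalization, and Cdk6 with spike-in scaling. Cdk6 was tested only through the tumors, with no normal liver reading well above background. Normexp gave it a log2 difference of 0.24 and did not call it. Ccnd1, the cyclin that drives entry into the cell cycle, was at 1.82, 1.42 and 2.35 in the normal livers and 9.24, 8.79 and 6.36 in the tumors. This rise of 2.14 ± 0.23 on the log2 scale had an adjusted p of 0.00173. Arid3a, a transcription factor, fell by 0.97 ± 0.19 on the log2 scale, with a second probe at -1.72. Mature let-7 itself was not measured on these arrays.

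The mRNA-binding and mRNA stability proteins that work beside the Igf2bp family were well measured and mostly did not pass the test. Of 18 tested, 16 did not pass, 2 fell and 0 rose, with a median of -0.06. Those that fell were Elavl1, which binds AU-rich elements and stabilises mRNA, by 0.46 ± 0.12 on the log2 scale, and Msi1, a translational regulator of stem cells, by 0.40 ± 0.11. Neither was called after quantile normalization or spike-in scaling, while Khsrp was called higher after normexp or quantile normalization. Of the other high mobility group genes, 1 of 10 tested rose. This was Hmgb2, a chromatin protein of dividing cells, by 0.57 ± 0.14 on the log2 scale (adjusted p = 0.0227), a call that was also lost with spike-in scaling.

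Around Afp, the transcription factors known to act on it were examined. Of 12 tested, 1 rose, 2 fell and 9 did not pass, with a median of -0.35. Zbtb20, the zinc finger repressor that silences Afp in the postnatal liver, was at 15.8, 18.0 and 19.7 in the normal livers and 6.10, 9.43 and 7.77 in the tumors. The groups did not overlap, and the fall by 1.22 ± 0.19 on the log2 scale had a limma adjusted p of 0.00512. Zhx2, a second postnatal repressor of Afp, had no reading well above background (0.0257 to 0.139 over the 6 arrays), so no difference could be measured for it. Foxa3, a liver pioneer factor, rose by 0.91 ± 0.24 (adjusted p = 0.0303), and Cebpb fell by 0.74 ± 0.22 on the log2 scale (adjusted p = 0.0421), the latter lost with quantile normalization and with spike-in scaling. Hnf4a, the central regulator of hepatocyte identity, differed by 0.16 with an interval of -0.19 to 0.50.

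The rest of the albumin gene family did not follow Afp in size. Albumin was at 2447, 2449 and 1923 in the normal livers and 2123, 2221 and 2162 in the tumors, which overlapped, for a log2 difference of -0.06 with an interval of -0.38 to 0.26. Afm, the vitamin E carrier afamin, was the 1 gene of 3 tested that rose, by 0.76 ± 0.12 on the log2 scale (adjusted p = 0.00654). Gc, the vitamin D carrier, differed by -0.20 ± 0.10 and did not pass the test (limma adjusted p = 0.166). A second Gc probe gave 0.10, and quantile normalization moved the first to 0.03.

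Among the relatives of Gpc3, the glypicans and syndecans with the glypican-releasing enzyme Notum, 3 of 8 tested rose and 2 fell. Gpc6 had values of 0.103, 0.139 and 0.172 in the normal livers, of which 1 was well above background, and 0.635, 0.50 and 0.496 in the tumors. Gpc1 rose from 8.38, 7.59 and 7.12 to 22.7, 18.8 and 14.6, or by 1.26 ± 0.18 on the log2 scale (adjusted p = 0.00421). Gpc4 rose by 0.41 ± 0.12, a call that was lost with normexp background correction and with spike-in scaling, and its second probe gave 0.02. The syndecans that fell were Sdc3, by 0.90 ± 0.24 on the log2 scale, and Sdc2, by 0.58 ± 0.13, of which Sdc2 was not called with spike-in scaling. Gpc2 and Gpc5 were not tested.

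Among Golm1 relatives and other Golgi membrane proteins, 1 of 10 tested rose and none fell. This was Golm2, the paralog of Golm1, which lacked a reading well above background in normal liver (0.0347, 0.0820 and 0.111) and gave 2.30, 2.49 and 1.89 in the tumors. In the processed signal the tumors exceeded normal liver at least 19.2-fold (limma adjusted p = 6.62e-04, group means of 0.0760 and 2.23). Normexp background correction gave Golm2 a log2 difference of 2.43, below the bound of 4.26, with the gene still called. The other 9 genes, among them the Golgi matrix proteins Golga2 and Gorasp2 and the glycosylation enzymes Man2a1 and Fut8, did not pass, and the median of the list was -0.17.

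Of the 19 other fetal liver and progenitor genes, 14 were tested, of which 8 rose, 0 fell and 6 did not pass, and 5 were too dim to test. H19, Cd24a, Hkdc1 and Tspan8 were tested only through the tumors, where they were high, so the median log2 difference of 1.70 over the tested genes is no support for the list. Prom1, which encodes the stem cell surface protein CD133, went from 0.291, 0.325 and 0.332 to 25.5, 32.9 and 25.8. Tff3, a secreted mucosal peptide, went from 6.95, 3.97 and 8.22 to 568, 412 and 333. Tspan8, a tetraspanin of the cell surface, and Bex1 rose by 8.36 ± 0.24 and 4.76 ± 0.18 on the log2 scale, and a second Bex1 probe gave 7.77. All of these had non-overlapping groups and an adjusted p of at most 1.29e-04. The remaining calls were Cd24a, Sox4, Hkdc1 and the imprinted H19.

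The imprinted fetal genes, which are not members, split as well. H19, a fetal long noncoding RNA, was at 0.25, 0.143 and 0.105 in the normal livers and at 199, 67.2 and 40.9 in the tumors. Igf2, its neighbour on the chromosome and the mRNA after which the Igf2bp family is named, had no reading well above background, with values from 0.0267 to 0.0411. Dlk1 was at 0.0369, 0.0305 and 0.0272 in the normal livers, none well above background, and at 0.0753, 1.81 and 0.230 in the tumors, of which the second and the third were. The tumor that was highest thus differed by gene. It was the first for H19 and Igf2bp3 and the second for Dlk1, while Afp and Golm1 were nearly equal in the first 2 tumors.

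**Figure D4:**
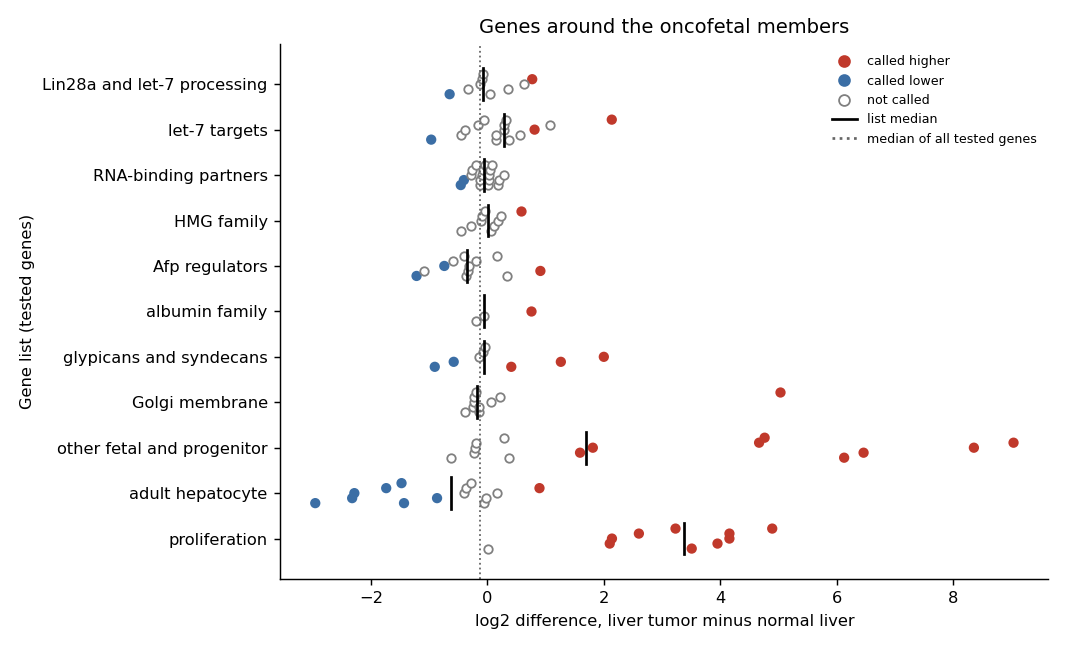
Log2 difference, tumor minus normal liver, of the tested genes in 11 lists around the members, red where called higher, blue where called lower and open where not called, with a bar at the median of each list and a dotted line at the median of all tested genes (-0.13). The RNA-binding partners cluster around 0, other fetal and progenitor genes and proliferation genes reach far to the right, and adult hepatocyte genes reach to the left.

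Genes of the adult hepatocyte moved the other way, with 7 of 14 tested lower, 1 higher and 6 not called, and a median of -0.63. Of all tested genes 21.0% were called lower. G6pc, the last enzyme of glucose release, was at 106, 213 and 112 in the normal livers and 18.7, 44.0 and 24.4 in the tumors, a fall by 2.32 ± 0.39 on the log2 scale. Hpd, an enzyme of tyrosine breakdown, fell by 2.29 ± 0.34 and Cps1, the entry enzyme of the urea cycle, by 1.48 ± 0.22. Cyp2e1 fell by 2.96 ± 0.90 (adjusted p = 0.0467), was lowest in the first tumor, and was not called after quantile normalization. Apoa1 was the gene that rose. Of the proliferation genes, 9 of 10 tested rose, where 13.2% of all tested genes were called higher. The median of the list was 3.37, or 2.69 with genes below background in normal liver set to their bound. Top2a, Ccnb1, Bub1, Cdk1, Ccna2 and Mcm2 were tested only through the tumors, where they were high. The count and the median are therefore no support for the list. Normexp background correction gave this list a median of 1.51, with the same 9 genes called. Mki67, which encodes the marker Ki-67, went from 0.207, 0.319 and 0.257 to 5.46, 5.49 and 3.23, and as with Afp and Gpc3 the third tumor was the lowest of the tumors.

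Markers of other liver cells also moved. Of 6 macrophage and Kupffer cell markers, 5 were tested and 3 fell (Clec4f, Csf1r and Cd68), and their summed values were 56.0 to 93.7 in the normal livers and 30.1 to 48.8 in the tumors. Of 6 stellate cell and fibroblast markers, all tested, 3 fell (Lrat, Des and Pdgfrb) and 1 rose (Col1a1), with summed values of 4.17 to 6.11 and 6.15 to 9.19. Of 7 erythroid markers 4 were tested and 2 fell (Alas2 and Klf1), with summed values of 151 to 342 and 99.2 to 227, and Epb42 and Gata1 had no reading well above background. Of 5 endothelial markers 1 fell (Stab2, with 1 of its 3 tested probes), with summed values of 53.1 to 65.0 and 46.9 to 49.9. None of the tested cholangiocyte (4 of 6), lymphocyte (2 of 6) or neutrophil markers (4 of 6) was called. Their summed values ran from 2.33 to 2.93 against 1.89 to 2.19 for cholangiocytes, from 6.53 to 8.29 against 6.60 to 8.49 for lymphocytes, and from 7.66 to 10.2 against 7.34 to 21.8 for neutrophils. With spike-in scaling Csf1r, Cd68, Pdgfrb and Stab2 were no longer called, Cd68 was also lost after quantile normalization, and Acta2, Lyve1 and Cd79a were called higher. The part of these cells in the members' changes was not tested. In bulk RNA, more cells that express a gene and more of its RNA per cell cannot be told apart.

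The genes whose values over the 6 arrays were most like those of each tested member were found from the root mean square difference of log2 values after each gene was centred, over all 18560 tested genes. For Golm1 they were Nid1, a basement membrane protein, at a difference of 0.19, Msantd3 at 0.22 and Apoa4, a lipoprotein of the gut and liver, at 0.23. Nid1 was at 1.59, 1.90 and 1.71 in the normal livers and 59.1, 57.9 and 52.0 in the tumors. For Gpc3 the nearest were Arhgap22 at 0.48, an unnamed transcript at 0.55 and Alox5, the enzyme that starts leukotriene synthesis, at 0.58. For Afp they were Gldn at 0.79, Akr1c18, a progesterone-metabolising enzyme, at 0.93 and Erich4 at 0.99, and none of these 3 was well above background in a normal liver. In the normal livers Gpc3 and its first 2 neighbours had no reading well above background and Alox5 had 1, so the order of nearness to Gpc3 and Afp rests on dim values that have no order. For Hmga1 the nearest were an unnamed probe at 0.02, Sertad2 at 0.05 and C1qtnf12 at 0.06.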

How the data were processed

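Total RNA of 3 normal livers and 3 liver tumors was labelled with Cy3 and hybridised to 1-colour Agilent arrays. The authors deposited Feature Extraction output (version 10.7.3.1 per the file headers, 12.0.3.1 in the submitters' processing notes) whose processed signal intensity is background subtracted. A second deposited table holds the ratio of this signal to each array's 75th percentile, and every column belonged to a sample. The 75th percentile ranged from 124 to 183, 44.7% to 48.9% of probe spots were well above background, and no spot was saturated. The median local background differed with the slide, at 42 to 45 on the normal liver arrays and 22 to 23 on the tumor arrays. Its part in the dim readings was not tested.

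The processed signal was divided by the 75th percentile over all spots of its array and put on the log2 scale. Outlier spots were left out and spots of 1 probe averaged. A probe was tested if the 3 arrays of at least 1 group were well above background, which left 24889 probes for limma 3.58.1 (lmFit and eBayes, R 4.3.3) in two-sided tests, adjusted over all probes by Benjamini-Hochberg and a threshold of 0.05. SE is limma's moderated value. A gene is read by its brightest probe. Tables and figures were made in Python 3.11.15 with matplotlib 3.10.9, scipy 1.17.1, numpy 2.4.6 and pandas 2.3.3, and the fit was tested on simulated data. Names came from RefSeq (GRCm38.p6) by accession for 27235 probes, symbol for 3581 and synonym for 565, and from the array design for 24300. Promoters are from the RefSeq table of the same build.

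The members and lists were chosen with earlier results of these data known. Named were all members, up to 5 called genes with the largest change per list, the 3 genes most like each tested member, and Zhx2, Zbtb20, Alb, Lin28a, Igf2, H19 and Dlk1. Other genes are listed by name only, as called, not called or not tested, or were chosen after their values were seen (Hnf4a, Gc). Some genes that this rule takes are not reported here. The methods' t-test, which the study names, was run on linear values, unpaired and paired. Alternatives were normexp background correction (offset 50), quantile normalization, scaling by spike-in controls, no filter, a filter on all 6 arrays, the deposited ratios (pseudocount 0.01), a trend in eBayes, a replicate block, averaging over the probes of each gene, and each array left out.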

Additional observations from a re-analysis of the deposited data

How the results depend on the processing

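Afp, Gpc3 and Golm1 were higher in the tumors under every alternative run, and all 3 were called with normexp, quantile normalization, spike-in scaling, no filter, the deposited ratios, a trend in eBayes, the replicate block, averaging over a gene's probes and each array left out. With a filter on all 6 arrays, 1 member was called (Golm1), because Afp and Gpc3 were then not tested. With each array left out, the log2 difference ranged from 9.005 to 10.21 for Afp, 7.32 to 8.28 for Gpc3, 5.35 to 5.43 for Golm1 and 0.10 to 0.36 for Hmga1. Normexp gave the smallest differences, 7.87 for Afp, 5.21 for Gpc3 and 4.78 for Golm1. Hmga1 was called under none of its 17 alternatives, with values from 0.10 to 0.40 and adjusted p from 0.156 to 0.652. By the methods' t-test after adjustment, unpaired, Afp and Golm1 were called and Gpc3 was not (log2 ratio of means 7.79, adjusted p = 0.0581).

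The labels do not say whether same-numbered samples share an animal, and the study's statistics section names a paired t-test. Deviations from the group means of same-numbered samples correlated at 0.0687, 0.1321 and 0.0506. Between different numbers the correlations ran from -0.1390 to 0.0550. Samples 1 and 2 of each tissue correlated best with the same number. Normal 3 (0.0541) and tumor 3 (0.0550) each correlated slightly better with another number. These values did not settle pairing, and the samples were not treated as pairs. With the replicate block, limma called 7019 probes and the adjusted p rose to 0.00304 for Afp, 0.00316 for Gpc3 and 6.22e-04 for Golm1. The log2 differences cannot change in this balanced design (9.44, 7.86, 5.39 and, for Hmga1, 0.26). In the paired form of the methods' t-test no probe and 0 members were called after adjustment, with log2 ratios of means of 9.002 for Afp (adjusted p = 0.116), 7.79 for Gpc3 (0.172) and 5.39 for Golm1 (0.0979), and 2 members (Afp and Golm1) met the methods' criteria unadjusted.

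The count of called probes, 8238, moved to 5058 with spike-in scaling, 4672 with no filter, 5261 by the unpaired t-test, 0 by the paired one, and 4951 to 7173 with each array left out, lowest without the second normal liver. The share of calls that were higher was 37.8%, and 57.6% with spike-in scaling, which moved the median log2 difference of all tested probes from -0.13 to 0.00. With 1 spot per probe for all members but Afp and 3 arrays per group, readings near background limit Gpc3 to a bound and leave 5 members untested.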
